A study of Mus musculus with 6 samples.

Results

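Among the genes counted in C2C12 cells, a mouse myoblast line able to form muscle or bone, 52 genes with zinc finger names carried enough counts to describe. They were chosen by name, as genes called Zfp, Zbtb or Zkscan with a number, and selected on a mean of at least 5 counts over all 6 libraries. This is 52 of 414 genes so named and of 22753 genes in all. The Zfp names gave 40 of the 52, Zbtb names 11 and Zkscan names 1. One of them, Zbtb8os, is a zinc finger gene in name only: it lies opposite Zbtb8a and encodes archease, a partner of the tRNA ligase.

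Poly-A RNA was compared between 3 samples given 1% DMSO, the solvent, over 2 days and 3 given 10 µM of a small molecule for the same time. The molecule, a screening hit labelled ru226 and here called the compound, is a quinolin-2(1H)-one with dimethyl and phenyl-imidazolyl substituents. Both groups are the same cell line, and no label says that the samples came from separate cultures, so the p-values speak of the spread among these libraries, which may be technical. Table totals ran from 493406 to 597112 counts, except for DMSO replicate 3 with 952813. Results that change without that library are marked. The labels call the libraries stranded and also name the TruSeq RNA v2 kit, and they give no strand setting for counting. Counts lay mostly under genes whose exons overlap exons of a gene on the opposite strand. Such genes were 24.4% of those placed on the mouse genome and held 92.99% of their counts. Reads of 2 overlapping genes cannot be told apart without a stated strand setting, so each value below is a count filed under a gene name and may belong to the gene on the opposite strand. Such genes are named beside the zinc finger genes described in detail. Mean counts over the 6 libraries were 38840 under mt-Nd6, 135.2 under mt-Co1, 24.2 under Eef1a1 and 40.0 under Vim. Whether reads were filed on the wrong strand was not tested. In such bulk RNA, fewer cells of a type and less RNA per cell cannot be told apart either.

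Classical zinc finger proteins bind DNA through small domains in which a pair of cysteines and a pair of histidines hold a zinc ion. Many Zfp and Zkscan proteins join these fingers to a KRAB domain, which recruits the corepressor TRIM28 and the histone methyltransferase SETDB1 to silence genes and transposons. In Zbtb proteins the fingers follow a BTB domain, through which the proteins pair and bind corepressors. A few Zfp names belong to RNA-binding proteins. Within the muscle lineage, proteins of these families include repressors that act during differentiation of myoblasts.

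Sequences before the RefSeq starts of the changed genes are shown first. For 5 changed genes, Zfp276, Zbtb4, Zfp335, Zbtb8os and Zfp687, RefSeq windows on GRCm38.p6 were matched by symbol, and 4 were found. Each line gives the 250 bases before the RefSeq start in the gene's own direction. The Zbtb4 window is chr11:69765662-69765911 on the plus strand, that of Zfp335 chr2:164911751-164912000 on the minus strand. Zbtb8os has chr4:129335718-129335967 on the plus strand, and Zfp687, for the one of its 2 windows nearer to the annotated start of the gene, chr3:95015458-95015707 on the minus strand. Capitals mark matches, on either strand, to 4 short motifs that do not overlap here: CAGCTG and CACGTG, E-boxes of the kinds bound by MyoD and Myc, CCGGAAG, an ETS-type site, and CCAAT, the NF-Y site.
Zbtb4: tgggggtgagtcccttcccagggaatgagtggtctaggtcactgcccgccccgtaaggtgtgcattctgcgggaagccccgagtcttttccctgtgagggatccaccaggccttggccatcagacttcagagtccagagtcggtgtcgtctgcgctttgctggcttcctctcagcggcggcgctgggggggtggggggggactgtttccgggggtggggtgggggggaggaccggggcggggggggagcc
Zfp335: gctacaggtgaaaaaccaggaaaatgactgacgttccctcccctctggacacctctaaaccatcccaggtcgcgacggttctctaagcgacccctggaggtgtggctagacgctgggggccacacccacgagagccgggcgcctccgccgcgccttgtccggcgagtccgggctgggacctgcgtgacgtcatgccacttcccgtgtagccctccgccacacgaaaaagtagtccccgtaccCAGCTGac
Zbtb8os: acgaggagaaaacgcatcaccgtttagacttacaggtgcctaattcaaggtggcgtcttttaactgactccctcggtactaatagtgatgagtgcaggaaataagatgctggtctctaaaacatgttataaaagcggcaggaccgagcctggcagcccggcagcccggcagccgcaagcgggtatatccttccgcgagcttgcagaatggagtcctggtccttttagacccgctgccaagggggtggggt
Zfp687: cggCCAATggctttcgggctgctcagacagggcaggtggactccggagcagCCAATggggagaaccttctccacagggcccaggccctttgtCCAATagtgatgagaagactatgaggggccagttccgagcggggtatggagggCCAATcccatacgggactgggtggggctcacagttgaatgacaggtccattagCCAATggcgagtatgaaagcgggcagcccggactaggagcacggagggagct
Zfp335 held 1 CAGCTG, starting 8 bases before the RefSeq start. Most of that match lies inside the first annotated exon of Zfp335, a minus-strand gene that begins at 164911757. Zfp687 held 5 copies of CCAAT, starting 247, 199, 158, 105 and 52 bases before its RefSeq start. No match to these letters lay in the Zbtb4 and Zbtb8os windows. The Zbtb8os window lies wholly inside the first exon of that gene in GENCODE M21, which begins at 129335695. It therefore holds no sequence upstream of that annotated start. Over all 32851 windows of this length, 33.8% held CCAAT at least 1 time and 0.213% held it 5 or more times. CAGCTG was present in 13.0%, CCGGAAG in 6.91% and CACGTG in 6.02%. The windows of the 3 genes among these 4 that moved down, Zbtb4, Zfp335 and Zbtb8os, the last of them exonic, shared none of these motifs.

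Counts were spread very unevenly over the 52 genes. Mean counts ran from 5.0 to 262.2 with a median of 11.66, and 34 genes stood under 20. Zfp335, Zfp397 and Zfp784 together held 39.4% of all counts under these genes, and the 8 highest held 58.8%. Levels are given in CPM, the count scaled to library size by the TMM method of edgeR. Per kilobase of exon the order of the first genes changed. Zfp784 led with a mean level of 102.4 CPM per kb, followed by Zfp335 with 86.1, Zfp397 with 43.4 and Zfp385c with 22.5. Together the 52 genes took 0.251%, 0.264% and 0.309% of the table total in DMSO replicates 1 to 3. In the compound libraries they took 0.214%, 0.220% and 0.216%, below every DMSO library. This sum over genes was not tested. The TMM library sizes that set CPM were smaller than the table totals in every compound library and larger in every DMSO library. On the CPM scale the gap between the groups was therefore smaller. Just inside the limit lay Zfp131 and Zfp213 with a mean of 5.0 counts each and Zfp821 with 5.33. Just outside were Zfp931 with 4.83, Zfp113 with 4.67 and Zbtb32 with 4.5. Of the 362 family genes under the limit, 147 had a count of 0 in all 6 libraries.

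The fit across all genes kept 28 of the 52, and 24 had too few counts in too many libraries to be tested. At an adjusted p under 0.05, with the compound, 4 of the 28 fell, Zfp276, Zbtb4, Zfp335 and Zbtb8os, and 1 rose, Zfp687. As shares these are 14.3% lower and 3.57% higher, 17.9% in all. Among all 2440 tested genes 18.0% passed, 10.5% lower and 7.5% higher, so the zinc finger genes changed about as often as tested genes in general. Their median log2 change was -0.11 beside 0.02 over all tested genes, with 12 above and 16 below 0. That median was 0.08 without DMSO replicate 3 and -0.01, -0.03 and 0.0 without compound replicate 1, 2 and 3. Without compound replicate 1 only the fall of Zfp276 passed, 1 lower and 0 higher in edgeR, where 4 lower and 3 higher had an unadjusted p under 0.05, and 8.8% of all genes passed. Without compound replicate 2, 2 were lower, Zfp276 and Zbtb4, and 0 higher, with 5 and 2 at that unadjusted p and 9.37% of all genes passing. Leaving out DMSO replicate 3 gave 5 lower and 3 higher of 33 tested, beside 24.2% of all genes in either direction, adding Zfp605 (overlapped by Gm15484), Zfp784 and Zfp142. DESeq2 and limma-voom each called 4 lower and 1 higher.

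**Figure D1:**
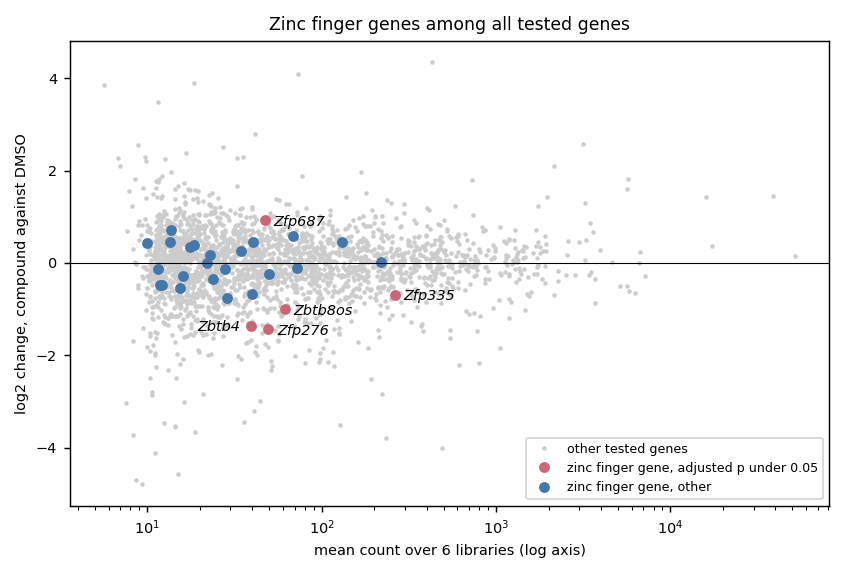
Log2 change against mean count over 6 libraries (log axis) for all 2440 genes tested, each point a gene. The 28 zinc finger genes (blue, or red and named with adjusted p under 0.05) lie within the cloud of other genes (grey), between log2 changes of -1.44 and 0.93.

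Zfp276 showed the largest fall by log2 change. In DMSO replicates 1 to 3 it stood at 88.5, 115.8 and 115.2 CPM, and in compound replicates 1 to 3 at 31.5, 50.8 and 35.3 CPM. Every compound library lay below every DMSO library. The means were 106.5 ± 15.6 and 39.2 ± 10.2 CPM (SD, n = 3), a log2 change of -1.44 ± 0.29 (SE) whose adjusted p in the quasi-likelihood test of edgeR was 0.00264. This fall passed under each of the 12 alternatives that tested the gene. Zfp276 lies on chromosome 8 from 123254195 to 123269745, plus strand, and is pinned between a pair of minus-strand genes. Its last exon overlaps 920 bp of Fanca, a subunit of the Fanconi anaemia DNA repair complex, and its first overlaps 154 bp of Vps9d1. Counts under Fanca itself were higher, at 577.2 ± 40.3 CPM in DMSO and 467.2 ± 42.0 CPM with the compound. Fanca's log2 change was -0.30 ± 0.16 (edgeR adjusted p = 0.214). Vps9d1 had 4 to 12 counts a library and was not tested.

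Zbtb4, which encodes a BTB repressor that binds methylated CpG, was the second largest fall. DMSO replicates 1 to 3 read 105.8, 96.0 and 65.3 CPM, and compound replicates 1 to 3 read 24.8, 40.2 and 37.3 CPM. Again the groups did not overlap, and the lowest DMSO library was replicate 3. The log2 change was -1.36 ± 0.32 (SE, edgeR adjusted p = 0.00905), from 89.0 ± 21.1 to 34.1 ± 8.21 CPM (SD, n = 3). It missed the threshold without compound replicate 1 (edgeR adjusted p = 0.0557). Zbtb4 spans 69765912 to 69784023 on chromosome 11, plus strand. No annotated exon overlaps it on the other strand. Past its end by 13 bp lies the end of Chrnb1, a minus-strand gene for the beta subunit of the muscle acetylcholine receptor. Counts under Chrnb1 had a log2 change of 0.05 ± 0.24 (edgeR adjusted p = 0.910).

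Zfp335 had the most counts of the 52 genes. It encodes a subunit of histone H3 lysine methyltransferase complexes, known from its role in neural progenitors. DMSO replicates 1 to 3 held 527.2, 448.4 and 536.6 CPM, and compound replicates 1 to 3 held 276.9, 298.3 and 363.1 CPM. The groups were apart, with a smaller step than under Zfp276 or Zbtb4. Means of 504.1 ± 48.5 and 312.8 ± 44.9 CPM (SD, n = 3) gave a log2 change of -0.69 ± 0.17 (SE, edgeR adjusted p = 0.0136). Without compound replicate 1 or 2 it missed the threshold (edgeR adjusted p = 0.0844 and 0.0808). The gene covers 164891882 to 164911757 of chromosome 2, minus strand. On the plus strand, Pcif1, which encodes the methyltransferase of the mRNA cap-adjacent adenosine, overlaps 1107 bp of its exons at its end, and Zfp335os 234 bp at its start. Under Pcif1 the level was 862.0 ± 69.8 CPM in DMSO and 900.9 ± 25.4 CPM with the compound, a log2 change of 0.06 ± 0.14 (edgeR adjusted p = 0.801). Upstream of Pcif1, Pltp had a log2 change of 0.73, Ctsa of 2.58 and Zswim1 of 4.09, each rising with an adjusted p of 0.00341 or less in edgeR. Neurl2, between Zswim1 and Ctsa, had a log2 change of -0.34 ± 0.23 and did not pass (edgeR adjusted p = 0.348).

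Zbtb8os and Zbtb8a are both among the 52 and overlap each other tail to tail by 264 bp on chromosome 4. Zbtb8os, the archease gene, read 121.4, 147.3 and 115.2 CPM in DMSO replicates 1 to 3 and 40.5, 69.8 and 78.8 CPM in compound replicates 1 to 3. All compound libraries were below all DMSO libraries, and compound replicate 1 was the lowest. From 128.0 ± 17.01 to 63.1 ± 20.03 CPM (SD, n = 3), its log2 change was -1.01 ± 0.27 (SE, edgeR adjusted p = 0.0189). It missed the threshold when DMSO replicate 2 was left out, and likewise compound replicate 1 or 2 (edgeR adjusted p = 0.0700, 0.0884 and 0.0561). Zbtb8a, a BTB zinc finger gene, had only 13.8 ± 4.84 and 19.4 ± 9.45 CPM, with overlapping groups. Its log2 change was 0.43 ± 0.53 (edgeR adjusted p = 0.629). Whether the changes of this pair differ was not tested.

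Zfp687 was the one gene of the 28 that rose. Its human counterpart is mutated in a severe form of Paget disease of bone. The DMSO libraries held 39.9, 59.6 and 69.1 CPM and the compound libraries 119.3, 110.0 and 97.5 CPM, in replicate order. No DMSO library reached the lowest compound library. Means of 56.2 ± 14.9 and 108.9 ± 10.9 CPM (SD, n = 3) gave a log2 change of 0.93 ± 0.27 (SE, edgeR adjusted p = 0.0254). This was the least stable of the 5 calls: it was lost without any single library other than DMSO replicate 3 (adjusted p from 0.0531 to 0.110 in edgeR) and with no filter on low counts (0.107). Its last exon overlaps 254 bp of Pi4kb, a phosphatidylinositol kinase gene of the Golgi, on the plus strand of chromosome 3. Pi4kb is also overlapped by A730011C13Rik and Gm15265. Counts under Pi4kb went the other way, from 293.1 ± 65.1 to 180.3 ± 8.85 CPM (SD, n = 3), a log2 change of -0.71 ± 0.21 (SE, edgeR adjusted p = 0.0262).

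**Figure D2:**
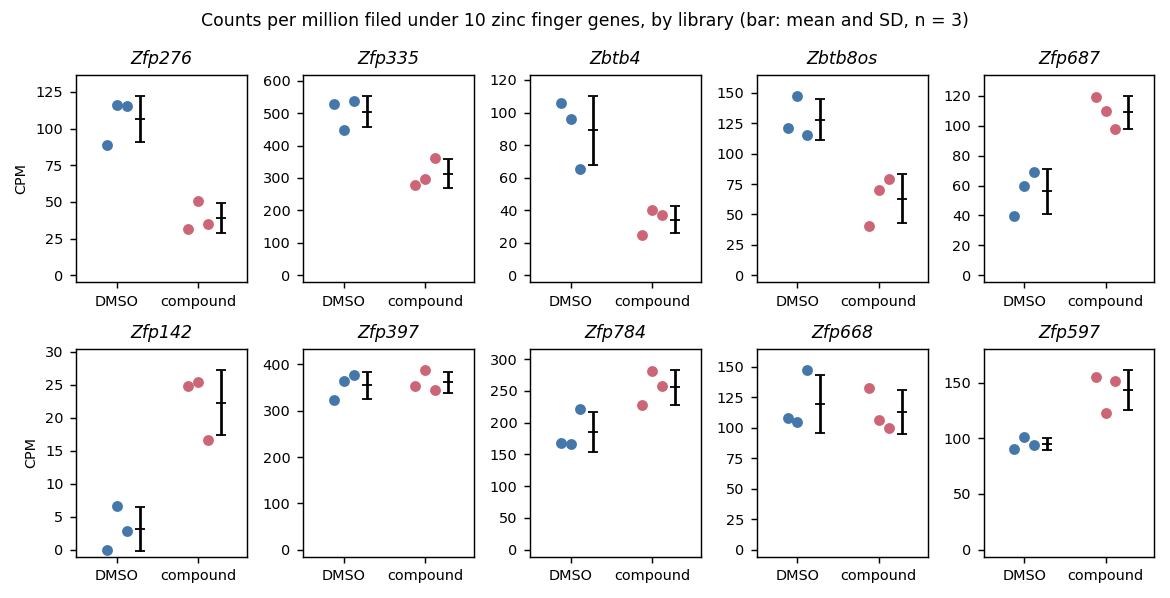
CPM under 10 genes in each of the 3 DMSO (blue) and 3 compound (red) libraries, points in replicate order, bars giving mean and SD. In the top row the groups are apart, as from 106.5 to 39.2 CPM for Zfp276; Zfp397 and Zfp668 overlap.

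Of the remaining well-counted genes, Zfp397, on chromosome 18, was steady. It had 322.6, 364.0 and 378.2 CPM in DMSO replicates 1 to 3 and 353.4, 387.2 and 344.4 CPM with the compound. The log2 change of 0.02 ± 0.17 (SE, edgeR adjusted p = 0.935) lay within its error, and no opposite-strand exon overlaps the gene. Zfp784 read 168.2, 167.1 and 221.8 CPM in DMSO replicates 1 to 3 and 227.4, 281.4 and 257.3 CPM with the compound, groups that just fail to overlap. Its log2 change of 0.45 ± 0.20 missed the threshold (edgeR adjusted p = 0.138) but passed without DMSO replicate 3, at 0.60 ± 0.18 (0.0132). In GENCODE M21 almost all of its exon length, 94.8%, is overlapped by Zfp865, another zinc finger gene. Zfp865 itself had 1 to 7 counts a library, and 4632433K11Rik overlaps 808 bp of Zfp784. In the coordinates deposited with the counts, however, Zfp865 ends at 5033138, short of Zfp784, which spans 5034439 to 5038446. Zfp597, overlapped by Zfp174, Naa60 and the non-coding Gm26675, had 95.1 ± 5.44 and 143.2 ± 17.8 CPM (SD, n = 3). It did not pass either, with a log2 change of 0.59 ± 0.22 (SE, edgeR adjusted p = 0.0741). Zfp668 and Zfp710 had log2 changes of -0.10 ± 0.24 and -0.24 ± 0.28, with overlapping groups. Zfp668 shares 608 bp, head to head, with Zfp646, which had 1 to 11 counts. The exons of Zfp710 contain 97 bp of the antisense gene Gm44949.

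Log2 changes of the 23 tested genes that did not pass ran from -0.76 for Zfp7 to 0.71 for Zfp81. Groups did not overlap for 11 of the 28, 7 lower and 4 higher, where 19.2% and 17.2% of all tested genes did so in these directions. The 7 were the 4 genes that fell with Zfp7, Zfp513 and Zfp473, and Zfp473, overlapped by Vrk3, had reached the filter on low counts in DMSO libraries only. The 4 higher were Zfp687, Zfp784, Zfp597 and Zfp385c. In the authors' deposited table, all 52 genes had an adjusted p, and 4 lower and 3 higher were under 0.05; of the 4542 genes with an adjusted p there, 7.73% were lower and 5.37% higher. Beyond the 5 genes above, the authors' deposited table called 2 others, Zfp597, with a log2 fold change of 0.56 and an adjusted p of 0.0290, and Zfp142, with 2.05 and 0.00159.

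**Figure D3:**
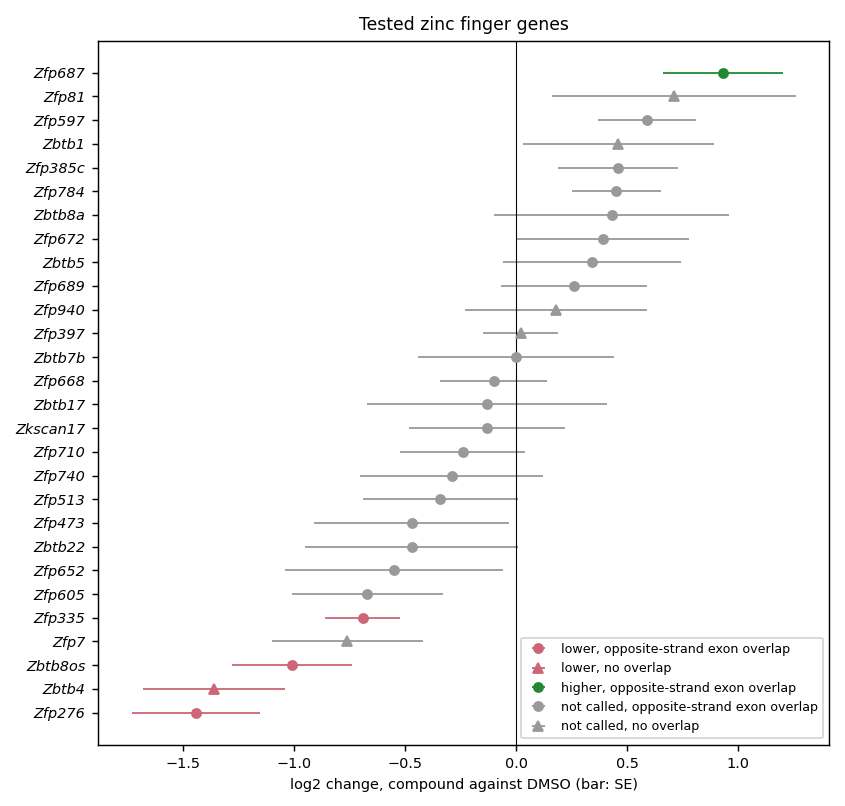
Log2 change with standard error for the 28 tested genes, ordered by change, with circles for genes whose exons an opposite-strand gene overlaps and triangles for the others. Red marks the 4 genes that fell and green the 1 that rose; the bars of most others reach or come close to 0.

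Among the 24 genes too thinly counted to test, CPM groups did not overlap for Zfp142, Zfp523 and Zfp521. Zfp142 was higher with the compound, and Zfp523 and Zfp521 were lower. How often this happened among all untested genes was not counted. Zfp523, overlapped by AC126937.2, had 9, 9 and 20 counts in DMSO and 0, 3 and 5 with the compound. Under Zfp142 the DMSO libraries had 0, 4 and 3 counts and the compound libraries 11, 12 and 8, in replicate order. The count of 0 allows up to 3 counts, so DMSO replicate 1 cannot be set below DMSO replicate 3. With no filter on low counts, a fit that took in all 52 genes, its log2 change was 2.63 ± 0.77 (SE, edgeR adjusted p = 0.0221). In the fits that left out 1 library and kept the filter, it was tested when any 1 DMSO library or compound replicate 3 was left out, passing the filter through compound libraries only, with log2 changes of 2.25 to 3.47, the highest without DMSO replicate 2, and not without compound replicate 1 or 2; with all libraries it failed the filter. The fit with no filter called 1 of the 52 higher, Zfp142, and the same 4 lower, beside 1.03% higher and 2.41% lower of all 12548 genes. Zfp142 overlaps Plcd4, a phospholipase C gene, by 2101 bp tail to tail on chromosome 1. Counts under Plcd4 had a log2 change of 0.27 ± 0.16 (SE, edgeR adjusted p = 0.276).

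Several genes with known roles in these families had few counts. Zfp521, which encodes a regulator of progenitor cells that restrains osteoblast and fat differentiation in mice, had 10, 10 and 31 counts in DMSO and 7, 6 and 4 with the compound. Zfp57, the KRAB factor that protects methylation of imprinted genes, had 4, 10 and 16 counts against 0, 0 and 5; the muscle and motor neuron RNA-binding factor Zfp106 had 5, 1 and 13 against 14, 11 and 4. These genes were not tested in the main comparison, and the values of Zfp57 and Zfp106 overlap. Zfp106 contains the whole of the non-coding Gm26899 on the opposite strand, whereas neither Zfp57 nor Zfp521 is overlapped. Zbtb17, whose product Miz1 pairs with Myc, had a log2 change of -0.13 ± 0.54 and Zkscan17 one of -0.13 ± 0.35 (edgeR adjusted p = 0.890 and 0.836). Zbtb17 overlaps 41 bp of Spen, and Zkscan17 contains 4933439C10Rik. Zbtb7a, a BTB repressor known for silencing fetal globin in human red cells, had 2, 7 and 15 counts against 2, 2 and 8. Others were under the limit: Zfp36, whose product tristetraprolin speeds the decay of AU-rich mRNAs, had a mean of 3.83 counts, Zfp36l2 2.33, Zbtb18, a repressor active in myogenesis, 1.33 and Zfp36l1 0.667. Counts of Zbtb16, Zfp148 and Zfp423 were 0 in all 6 libraries. A count of 0 allows up to 3 counts in each library.

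Having a neighbour on the other strand went with having counts. Exons of 30 of the 52 genes, 57.69%, were overlapped by an opposite-strand gene, against 20.06% of the family genes under the limit. The share among all table genes with a mean of at least 5 counts was 61.94%, so the zinc finger genes stood close to other counted genes in this. The 30 held 70.93% of the counts under the 52 genes, less than the 94.14% that overlapped genes held among all genes at that limit. The most frequent arrangement was tail to tail, seen for 15 genes with overlaps of 41 to 2913 bp. Starts overlapped head to head for 13 genes, by 22 to 726 bp. In 8 genes the other gene lay within the zinc finger gene, and 2 zinc finger genes lay within the other. Overlap with at least 1 protein-coding gene was found for 18 genes and overlap with other gene types alone for 12.

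**Figure D4:**
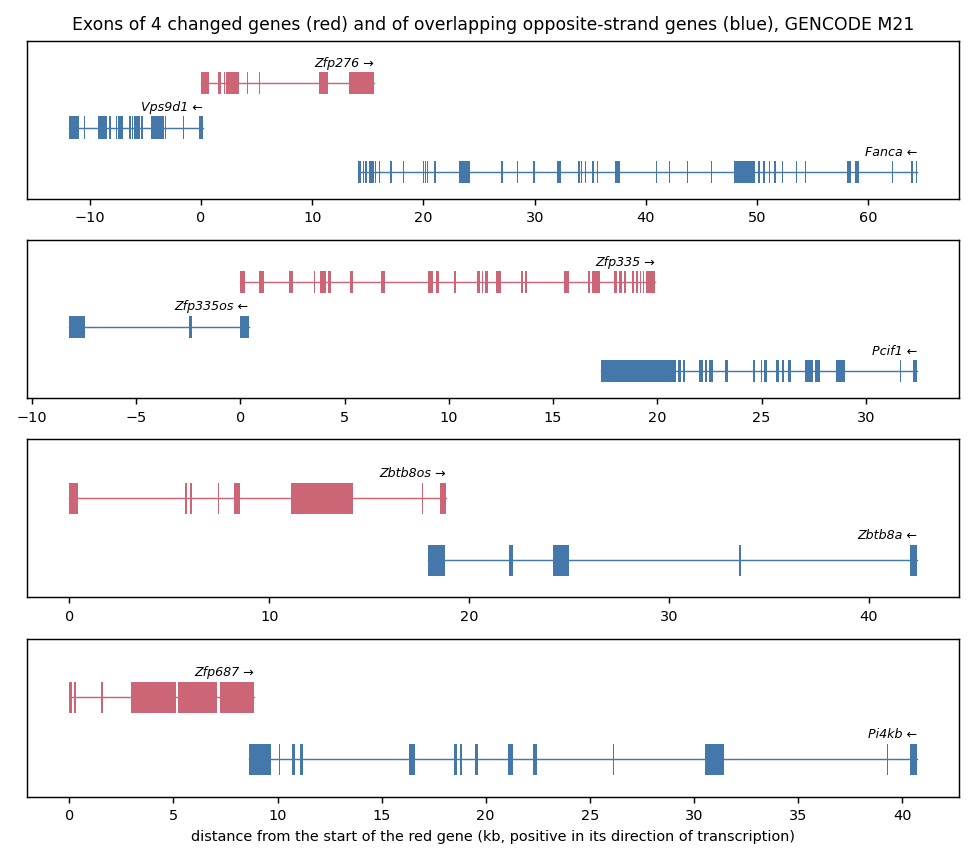
Exon maps of Zfp276, Zfp335, Zbtb8os and Zfp687 (red) and the opposite-strand genes that overlap them (blue), by distance in kb from the start of the red gene. Arrows give the direction of transcription. Ends meet tail to tail in all 4, by 920, 1107, 264 and 254 bp, and Zfp276 and Zfp335 are also overlapped at their starts.

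Both genes of a pair overlapping in GENCODE M21 were tested in 7 cases, and their changes had opposite signs in 5. Several of these signs lay within 1 SE of 0, as for Pcif1, Zbtb8a and Snx17. The share of opposite signs over all overlapping pairs was not counted, so no trait of these pairs is read from the 5. In 1 pair, Zfp687 and Pi4kb, both passed. Abi3, an actin regulator gene that overlaps 2913 bp of Zfp652, rose from 3366 ± 405 to 8351 ± 296 CPM (SD, n = 3), with a log2 change of 1.31. Under Zfp652 the log2 change was -0.55 ± 0.49 (SE, edgeR adjusted p = 0.493). Zfp385c and Nkiras2, which overlap by 65 bp, had changes of the same sign, 0.46 ± 0.27 and 0.55 ± 0.23. Zfp513 stood at -0.34 ± 0.35 and Snx17, a sorting nexin gene, at 0.26 ± 0.32. In the coordinates deposited with the counts this pair does not overlap: Snx17 ends at 31198900 and Zfp513 spans 31198981 to 31202303. Zbtb12, too thinly counted to test, lies within C2, a complement gene whose counts fell with a log2 change of -1.30 ± 0.24 (SE, edgeR adjusted p = 0.00172). The differences within pairs were not tested.

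**Figure D5:**
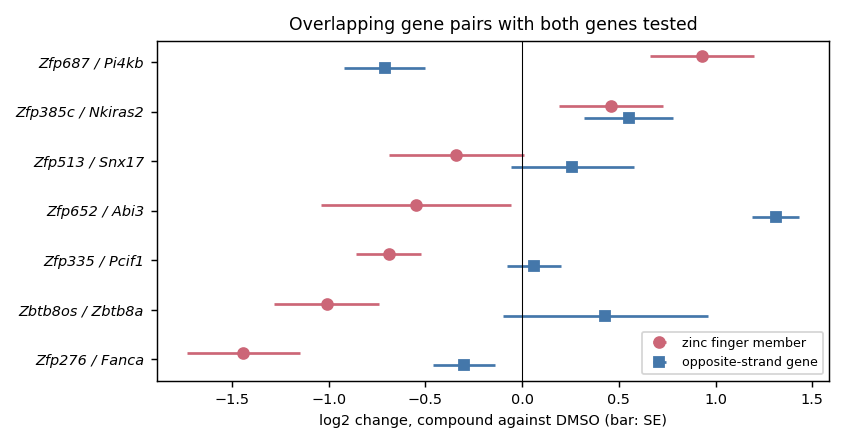
Log2 change with standard error of 7 zinc finger family genes (red circles) and of the opposite-strand genes overlapping them (blue squares), both tested in the same fit. The widest gaps are Zfp652 at -0.55 with Abi3 at 1.31, and Zfp687 at 0.93 with Pi4kb at -0.71.

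Among 110 table genes on a list of other zinc finger factors, which carry other names, 17 were tested. Of these, 4 fell and 0 rose in edgeR, DESeq2 and limma-voom, beside 10.5% lower and 7.5% higher of all tested genes in edgeR. At an unadjusted p under 0.05 in edgeR, 4 of the 17 were lower and 2 higher. Without compound replicate 1, 3 fell. Sp9 fell with a log2 change of -1.76 ± 0.28, Zic4 with -1.33 ± 0.34 and Yy1, a repressor of muscle genes in myoblasts, with -1.37 ± 0.30 (SE, edgeR adjusted p of 0.000525 to 0.0139). Yy1 read 47, 48 and 135 counts in DMSO and 16, 17 and 20 with the compound. The last of the 4, Hivep2, had 18, 12 and 34 counts against 0, 0 and 2. It reached the filter in DMSO libraries only, so its place among the tested genes rests on the group where it was high. The same holds for Ctcf, which had a log2 change of -1.02 and did not pass (edgeR adjusted p = 0.215). Both count in the 17 and in the median below, which the filter therefore helped to set. Sp9 is overlapped by Cir1, Zic4 by Zic1 and Gm37477, Hivep2 by Gm26835 and Gm28289, and Yy1 by none. The median log2 change of the 17 was -0.38, beside 0.02 over all tested genes, and ran from -0.71 without compound replicate 2 to -0.11 without compound replicate 1, with -0.15 without compound replicate 3 and -0.21 without DMSO replicate 3.

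Markers of the labelled myoblasts were thinly counted. All 10 had a count in at least 1 library, with Myod1 at a mean of 7.5 and Pax7 at 14. Myf5 had 3, 0 and 2 counts in DMSO and 3, 1 and 0 with the compound. The summed level of the 10 was 212.2 to 277.5 CPM in DMSO and 273.9 to 353.3 CPM with the compound. Des and Tpm2 had the highest mean counts of the 10, and the higher sum did not hold for each marker. Counts under Myod1 were 6, 6 and 25 in DMSO against 2, 3 and 3, and under Myog 2, 2 and 7 against 1, 0 and 0. Of 5 tested, Des and Tpm2 rose and Msc fell, with log2 changes of 0.99, 1.20 and -1.21. No marker passed without compound replicate 1 or 2, and only 1 rise passed without DMSO replicate 2. Msc did not pass in DESeq2 or limma-voom. Besides the main fit, a fall of a marker passed only with scaling by DESeq2 size factors and without DMSO replicate 3. Msc is overlapped by Gm9947, whose counts also fell (edgeR adjusted p = 0.000218), and Des by Gm15179. Summed osteoblast markers stood at 53.0 to 85.0 CPM in DMSO and 50.8 to 74.3 CPM with the compound, and Bglap, Ibsp and Sp7 were at 0. Fibroblast markers summed to 33.0 to 49.9 and 21.2 to 31.5 CPM with Lum at 0, and adipocyte markers to 0 to 8.27 and 0 to 9.01 CPM with Plin1 at 0. The 1 tested osteoblast marker, Runx2, and the 1 tested fibroblast marker, Col3a1, had log2 changes of 0.01 and -0.93 and did not pass. The part of these markers in the zinc finger results was not tested.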

How the data were processed

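Every test started from the raw counts the authors deposited for each gene. STAR 2.3.0e, HTSeq 0.6.0 and build mm10 are named in the submitters' processing notes. Not given in the sources used here are the strand setting, the rule for reads matching several genes and the release of the annotation. Repeated identifiers, which bring the table to 24725 rows, were used once. The deposited normalised signal, the count divided by 1 size factor per library per the file headers and values, and the deposited Wald score were not used. From the authors' comparison of compound with DMSO, a DESeq2 result by its name, per the file headers, with log2 fold changes shrunken at low counts, only log2 fold changes and p-values named as theirs were printed.

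Counts were tested genome-wide with the two-sided quasi-likelihood F test of edgeR 4.0.16 under R 4.3.3, after TMM scaling and the filterByExpr filter with group given, and Benjamini-Hochberg adjustment over all tested genes at 0.05. The SE is the absolute log2 change over the square root of F. CPM uses the TMM library size of the tested genes. Overlaps came from GENCODE M21 (mm10), which held 21931 of 22753 identifiers, with a minimum of 1 bp between exons. Some of these overlaps are absent from the gene coordinates deposited with the counts, as for Zfp784 with Zfp865 and Zfp513 with Snx17. Table totals set precision; a count of 0 allows 3 counts, 3.15 to 6.08 CPM of the total, for counting error only.

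The same fit on counts simulated for this comparison tested 2409 genes. Of the changed genes it tested, 42.6% of 68 with 2-fold and 98.6% of 73 with 4-fold changes were recovered. Of 106 calls, 5 were false. Changed genes that failed the filter were not counted in these shares. The simulated spread was fixed for all genes, not estimated from these libraries. The other settings tried were limma-voom (limma 3.58.1), DESeq2 1.42.0, scaling by its size factors or by upper quartile, no filter, a minimum mean count of 50, each library left out and a block for the replicate number. Members and lists were chosen with earlier results of these data known. Named genes were all that passed, the 8 with the highest counts, a list of family genes with known roles, and those beside the count limit; for gene lists, those past the threshold. Zfp142, Zfp385c, Zfp513, Zfp652, Zbtb12 and the other genes named outside this rule were chosen after their values were seen. One list, of corepressor genes, is not reported here.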

Additional observations from a re-analysis of the deposited data

How the results depend on the processing

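The 4 falls and 1 rise among the zinc finger genes were the count under both other scalings, DESeq2, limma-voom and the replicate block, and the count of all genes passing under the block was 442 beside 438. With a mean count of at least 50, 7 zinc finger genes were tested, 2 lower and 0 higher in edgeR (2 and 2 at an unadjusted p under 0.05). Leaving out each library gave 1 to 5 lower, 0 to 3 higher and 236 to 618 of all genes; the cause was not tested. Over 12 named genes that were tested, 138 of 151 alternative values kept the side of the threshold. Many of these belong to genes that did not pass in the main fit. Of the rest, 1, Zfp784 without DMSO replicate 3, gained the threshold and 12 lost it, all among the 5 genes that passed. Zfp276 passed in 12 of 12 alternatives, Zbtb4 in 11 of 12 and Zfp335 in 11 of 13. Zbtb8os passed in 10 of 13 and Zfp687 in 6 of 12. No direction of a gene that passed reversed. The median of all genes was -0.15 with no filter and within 0.04 of 0 otherwise. An overlap minimum of 50 bp left 28 of 30 overlapped genes. No label says that the replicate numbers pair the samples. Deviations of same-numbered libraries correlated at -0.011, 0.023 and 0.018, and those of differently numbered libraries at -0.055 to 0.044. Such values cannot show whether samples were handled as pairs. The count of finger motifs per protein was not run. The 24 untested genes fell below the filter on low counts. The 42.6% of 2-fold changes recovered in the simulation covered only genes that passed the filter, so it does not speak to these 24.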
